A study of Mus musculus with 48 samples.

Results

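The comparison described here asks which genes of the mouse left ventricle answered the drug JQ1 differently in diseased and in healthy hearts at 20 weeks of age. It is a difference of differences, JQ1 against vehicle in PLNR9C mice minus JQ1 against vehicle in wild type mice, and it was made from the 12 libraries of that age and tissue among the 48 of the series. All the mice were of the FVB strain. The 4 groups of 3 libraries were wild type with vehicle, wild type with JQ1 at 50 mg/kg, PLNR9C with vehicle and PLNR9C with JQ1 at 50 mg/kg, and the design text calls the 3 individual biological replicates. The stage label DCM (dilated cardiomyopathy) stands on all 12 libraries, those of wild type mice included, and the libraries hold RNA of whole ventricle tissue. The sources used here do not say how the PLNR9C protein is driven, how long the drug was given or what the vehicle was. A gene was called when the adjusted p of the difference was under 0.05, by edgeR's quasi-likelihood test with Benjamini-Hochberg adjustment over all 15971 genes tested. Differences are on the log2 scale, where a negative value means that the ratio of JQ1 to vehicle was lower in PLNR9C than in wild type. Levels are in CPM, read counts relative to library size after TMM scaling.

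BET proteins are readers of acetylated histones that hold the transcription elongation machinery at active genes and enhancers, and JQ1 occupies their acetyl-lysine pocket so that they leave chromatin. Phospholamban is a small membrane protein that slows calcium uptake into the sarcoplasmic reticulum by its pump, and its R9C mutation causes an inherited dilated cardiomyopathy. A failing ventricle re-expresses stress and fetal genes, lays down matrix and lowers its genes of fatty acid oxidation and of the mitochondrial respiratory chain. A drug effect that is the same ratio in both genotypes cancels in the difference studied here, so only genes whose response depended on the genotype remain.

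The libraries held 18415351 to 26730918 reads in genes. Hexim1, a P-TEFb inhibitor whose rise is a usual readout of BET inhibition, separated treated from untreated mice in both genotypes, at 93.1 to 120.9 CPM in wild type and 97.7 to 106.9 CPM in PLNR9C with JQ1 against 18.6 to 24.8 CPM in the 6 vehicle libraries. Its difference was -0.30 (adjusted p = 0.429) and did not pass. Myh6, the adult alpha myosin heavy chain and a defining cardiomyocyte marker, stood at 12999 CPM or more in every library. Reads from mitochondrially encoded genes made up 13.6% to 15.3% of wild type and 7.71% to 10.1% of PLNR9C libraries. Ddx3y, a Y-linked gene, was at 56.4 CPM or more in every library. Xist, which is transcribed from the inactive X chromosome, was at 7.06 to 12.8 CPM in wild type with vehicle and at 1.27 to 5.75 CPM in the other 9 libraries.

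JQ1 changed many genes in each genotype, and a difference between the 2 responses was called for few of them. In PLNR9C 2533 genes rose and 2564 fell with JQ1, and in wild type 1960 rose and 2378 fell. Across the 15971 genes the 2 responses, which share no library, had a Pearson correlation of 0.72 and a Spearman correlation of 0.70, a description across genes that are not independent. The difference itself was called for 57 genes, 0.357% of those tested. For 33 genes the response was lower in PLNR9C (0.207% of all tested) and for 24 it was higher (0.15%). At an unadjusted p under 0.05 there were 1641 genes, 10.27% of all tested. The median difference over all genes was 0.02, and 54.3% of genes were above 0. The size of the called differences ran from 0.44 to 2.85, with a median of 0.84.

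**Figure D1:**
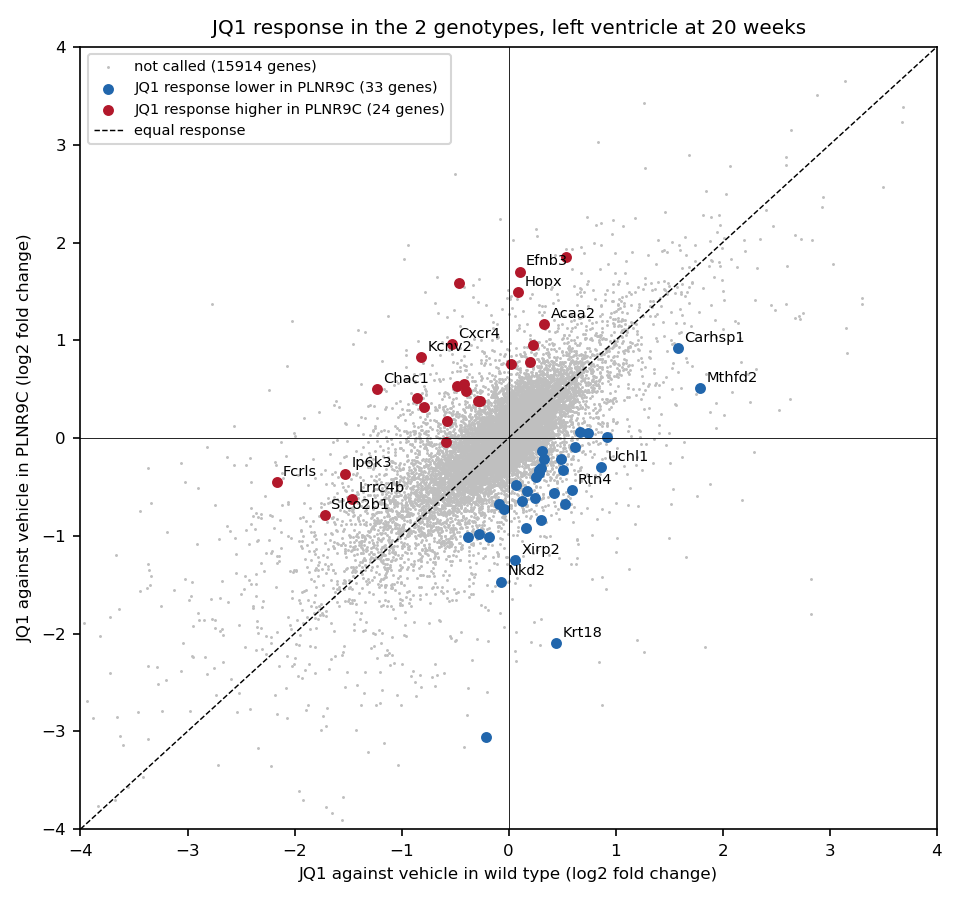
Log2 fold change of JQ1 against vehicle in wild type (x axis) and in PLNR9C (y axis), left ventricle at 20 weeks. Each point is a gene; blue marks the 33 genes called lower and red the 24 called higher in PLNR9C than in wild type, grey the others, and the dashed line equal responses. Of the 33 blue points 28 lie below 0 on the y axis and 26 to the right of 0 on the x axis. Axes end at 4 on each side, which leaves out 37 genes.

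In both sets the median JQ1 effect had opposite signs in the 2 genotypes. Over the 33 lower genes the median JQ1 effect was -0.53 in PLNR9C and 0.30 in wild type, and over the 24 higher genes it was 0.52 and -0.47. In 25 of the 33 lower genes all 3 JQ1 libraries of PLNR9C were below the 3 vehicle libraries, in 2 they were above, and in 6 they overlapped, where 24% of all genes tested were below and 24.6% above. The same genes in wild type had JQ1 above vehicle in 18, below in 3 and overlapping in 12, where 18.8% of all genes were above and 20% below. Of the 24 higher genes, JQ1 was above vehicle in PLNR9C in 17, below in 2 and overlapping in 5, and in wild type it was above in 3, below in 14 and overlapping in 7. These counts come from the libraries that made the call and are a description only.

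How many genes were called depended on single libraries. Without the first JQ1 library of PLNR9C 8 genes were called, and without the third 10. Without the second vehicle library of PLNR9C it was 17, without the second JQ1 library of wild type 15, and without the first JQ1 library of wild type 87. Without the first vehicle library of PLNR9C it was 33, and without the first, the second and the third vehicle library of wild type 22, 36 and 31. With the level of Xist as a covariate 8 genes were called, 7 of them among the 57. Xist was highest in wild type with vehicle (7.06 to 12.8 CPM), so its level cannot be fully told apart from the groups. With library size alone as the scaling, 36 genes were called higher and 25 lower, so that split went the other way. In each of these the 57 genes had the direction given here. The sources used here do not say whether counting used strand, and 23 of the 57 genes overlap another gene, so part of their reads may belong to the partner. Among them are Rtn4 (with Eml6, at up to 17.0 CPM), Tgfb3 (Ttll5, up to 20.3 CPM), Loxl3 (Htra2, up to 32.8 CPM) and Mtap1a (Ppip5k1, up to 221.5 CPM), and Ltbp3 is another. Over 20 alternative settings the calls of 32 of the 57 genes were followed. Rtn4, Ddah1 and Chac1 passed in all 20, Xirp2 in 19, and Kcnv2 and Acaa2 in 18. Of these 32 genes, those that passed in the fewest were Ncam1 and Epha4 (5), Otub2 (6), Uchl1 (7), Krt18 and Ip6k3 (8).

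Rtn4 had the smallest adjusted p of the 57 genes, shared with Chac1. It encodes Nogo, a reticulon that shapes the tubules of the endoplasmic reticulum, and lies at chr11:29692898-29744414, plus strand in the deposited table. Its levels were 99.7, 113 and 110.2 CPM with vehicle and 138, 185 and 163 CPM with JQ1 in wild type, and 619.8, 623 and 652 CPM with vehicle and 392, 463 and 454 CPM with JQ1 in PLNR9C. The 4 groups did not overlap: JQ1 raised Rtn4 in wild type (0.59 on the log2 scale) and lowered it in PLNR9C (-0.53), where its vehicle level was the highest of the 4 groups. The difference was -1.12 ± 0.13 (SE, adjusted p = 0.00121).

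The promoters of Rtn4, Otub2 and Ltbp3, all in the lower set, are printed because they are the lower genes whose promoter window held the AP-1 motif TGANTCA, AP-1 being the Fos and Jun dimer that answers stress signals. Capitals mark AP-1 and, where present, the TEAD motif GGAATG or its reverse complement. Each line runs from 250 bases before the RefSeq start to 30 bases after it, on GRCm38.p6, read in the direction of the gene.
Rtn4 (chr11:29692648-29692927, + strand): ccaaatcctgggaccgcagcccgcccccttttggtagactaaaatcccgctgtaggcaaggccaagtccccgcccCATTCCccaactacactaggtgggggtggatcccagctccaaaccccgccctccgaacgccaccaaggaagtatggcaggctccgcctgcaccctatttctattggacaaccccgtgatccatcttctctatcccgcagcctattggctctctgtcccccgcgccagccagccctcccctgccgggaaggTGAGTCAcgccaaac
Otub2 (chr12:103376644-103376923, + strand): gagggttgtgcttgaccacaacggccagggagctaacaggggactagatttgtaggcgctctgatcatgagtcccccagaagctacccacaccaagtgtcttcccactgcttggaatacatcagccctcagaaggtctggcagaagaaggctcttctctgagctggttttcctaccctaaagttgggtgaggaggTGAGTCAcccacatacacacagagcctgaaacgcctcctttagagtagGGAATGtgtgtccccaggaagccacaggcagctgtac
Ltbp3 (chr19:5740650-5740929, + strand): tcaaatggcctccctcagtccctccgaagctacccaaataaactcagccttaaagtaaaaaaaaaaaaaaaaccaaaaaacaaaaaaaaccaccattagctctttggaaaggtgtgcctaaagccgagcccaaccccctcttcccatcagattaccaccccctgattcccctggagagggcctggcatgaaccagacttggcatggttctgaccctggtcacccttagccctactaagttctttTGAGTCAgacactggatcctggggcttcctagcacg
The AP-1 letters begin at base 15 after the start in Rtn4, 55 bases before it in Otub2 and 6 bases before it in Ltbp3. RefSeq promoters within 1000 bases of the deposited start were found for 10927 of the 15971 genes and for 43 of the 57. In their windows, from 250 bases before to 50 bases after the start and searched on both strands, AP-1 was found in 3 of 24 lower and 1 of 19 higher genes (12.5% and 5.26%), against 4.87% of all. TEAD was found in 4 and 1 (16.7% and 5.26%), against 12.3% of all. The other motifs searched were the TATA box TATAAA (7.44% of all promoters), the CRE TGACGTCA (3.157%), the E-box CACGTG (10.07%), the NF-kB motif GGANTTTCC (1.245%), the MEF2 motif TAAAAATA (1.107%) and the GATA motif AGATAA (6.351%). Each was in 3 or fewer promoters of either set. No motif overlapped another in the 3 sequences shown. A match is a run of letters and not a bound site.

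Of 20 adult sarcomere genes, Des alone was called, lower, where 0.207% of all genes were. In that list 9 genes were above and 11 below 0. Xirp2, which was not on that list, encodes a Xin repeat protein that binds actin at the intercalated disc. Its levels were 1051, 954 and 1014 CPM with vehicle and 1089, 980.0 and 1076 CPM with JQ1 in wild type, and 5102, 5775 and 5027 CPM with vehicle and 1820.4, 2880.2 and 1998 CPM with JQ1 in PLNR9C. The 3 JQ1 libraries of PLNR9C lay below its vehicle libraries and above all 6 of wild type, which overlapped each other. The difference was -1.31 ± 0.19 (SE, adjusted p = 0.0161). Des, the muscle intermediate filament desmin, was at 1723, 1587 and 1681 CPM with vehicle and 2188, 2114 and 1996 CPM with JQ1 in wild type, and 3559, 4072 and 3867 CPM with vehicle and 3210.0, 3548 and 3119 CPM with JQ1 in PLNR9C. JQ1 raised it in wild type without overlap, and in PLNR9C the groups did not overlap by a narrow margin in the other direction, with a difference of -0.55 ± 0.11 (SE, adjusted p = 0.0388).

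Uchl1, a ubiquitin hydrolase, was at 2.68, 2.09 and 3.50 CPM with vehicle and 5.02, 4.71 and 5.27 CPM with JQ1 in wild type, and 28.3, 26.6 and 20.6 CPM with vehicle and 18.2, 24 and 19.3 CPM with JQ1 in PLNR9C. The wild type groups were apart and the PLNR9C groups overlapped, and the difference was -1.17 ± 0.24 (SE, adjusted p = 0.0434). JQ1 raised Uchl1 in wild type by 0.87, and in PLNR9C its effect of -0.30 did not pass. Ncam1, the neural cell adhesion molecule, was at 4.01 to 4.50 CPM with vehicle and 5.07 to 7.48 CPM with JQ1 in wild type, and at 76.5 to 87.7 and 42.8 to 65.8 CPM in PLNR9C. Neither pair of groups overlapped. The difference of Ncam1, -1.20 ± 0.24 (SE, adjusted p = 0.0498), was at the edge of the threshold. Myh10, a non-muscle myosin heavy chain, and Mtap1a, a microtubule-associated protein, had differences of -0.71 and -0.77. Both were chosen after their values were seen.

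Atp6v0a4, a subunit of the vacuolar proton pump, had the lowest difference of the 57 genes, -2.85 ± 0.58 (SE, adjusted p = 0.0398). It was at 0.433, 0.355 and 0.811 CPM with vehicle and 0.569, 0.453 and 0.342 CPM with JQ1 in wild type, and 3.85, 3.40 and 3.94 CPM with vehicle and 0.210, 0.486 and 0.641 CPM with JQ1 in PLNR9C. The PLNR9C groups were apart and the wild type groups overlapped, at levels that rest on few reads. Krt18, keratin 18 of simple epithelia, came next, -2.54 ± 0.53 (SE, adjusted p = 0.0434). Its levels were 0.216, 0.311 and 0.253 CPM with vehicle and 0.362, 0.227 and 0.488 CPM with JQ1 in wild type, and 6.17, 9.41 and 10.1 CPM with vehicle and 1.89, 2.26 and 1.81 CPM with JQ1 in PLNR9C, so wild type libraries held almost none and its wild type response rests on few reads. Krt18 was listed here among 10 epicardial and mesothelial markers, of which it alone was called, where 0.207% of all genes were called lower. Of these markers 7 were below 0, where 54.3% of all genes were above 0, and their median difference was -0.44. Their summed level was 31.3 to 48.1 and 33.5 to 43.5 CPM in wild type with vehicle and JQ1, and 76.5 to 88.3 and 54.3 to 87.6 CPM in PLNR9C. Krt8, its partner keratin, had a difference of -1.15 that did not pass. The part of such cells in the Krt18 result was not tested, and in whole tissue fewer cells of a type and less RNA per cell cannot be told apart. In the separated cells, Krt18 was at -0.27 for cardiomyocytes against non-myocytes, which did not pass. With vehicle it was higher in PLNR9C cardiomyocytes than in those of wild type (2.99), and the -0.25 in non-myocytes did not pass. JQ1 lowered it in PLNR9C cardiomyocytes (-1.19), but the difference of the responses there, -0.41, did not pass.

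Genes of the TGF-beta pathway, in which latent ligands stored in the matrix activate receptors and SMAD factors, had 2 of 24 members called, both lower, where 0.207% of all genes were called lower. Tgfb3, a ligand, was at 21.5, 20.6 and 26.0 CPM with vehicle and 17.5, 18.8 and 19.8 CPM with JQ1 in wild type, and 74.2, 80.1 and 91.1 CPM with vehicle and 38.8, 44.8 and 40.3 CPM with JQ1 in PLNR9C. The PLNR9C groups were far apart, the wild type groups were apart by a narrow margin, and the difference was -0.71 ± 0.14 (SE, adjusted p = 0.0398). Ltbp3, which holds latent TGF-beta in the matrix, was at 81.3, 85.3 and 77.9 CPM with vehicle and 84.8, 81.8 and 90.3 CPM with JQ1 in wild type, and 221, 230.1 and 203 CPM with vehicle and 157, 163 and 149 CPM with JQ1 in PLNR9C. Only the PLNR9C groups were apart, with a difference of -0.56 ± 0.10 (SE, adjusted p = 0.0278). The list median was -0.06, and 6 of its 24 members were above 0, against 54.3% of all genes tested.

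Loxl3, a lysyl oxidase that cross-links collagen and elastin, was the only one of 45 matrix genes called, where 0.207% of all genes were called lower. It was at 16.8, 20.1 and 16.5 CPM with vehicle and 15.7, 15.0 and 16.2 CPM with JQ1 in wild type, and 52.9, 43.3 and 43.4 CPM with vehicle and 20.3, 25.6 and 23.3 CPM with JQ1 in PLNR9C. JQ1 lowered it in PLNR9C (-1.01), and in wild type its effect of -0.19 did not pass, which gave a difference of -0.83 ± 0.16 (SE, adjusted p = 0.0293). In the matrix list 37 of 45 members were below 0 and the median was -0.26. The fibrillar collagens were not among the called genes: the difference was -0.14 (adjusted p = 0.944) for Col1a1 and -0.01 (adjusted p = 0.998) for Col3a1. Postn, the activated fibroblast protein periostin, had -0.51 (adjusted p = 0.747), and Meox1, a homeobox factor of activated fibroblasts, had -0.47 (adjusted p = 0.689). JQ1 lowered Meox1 in both genotypes, by 1.90 in wild type and 2.37 in PLNR9C. Hyal1, a lysosomal hyaluronidase, had a difference of -0.84 ± 0.16 (SE, adjusted p = 0.031). Its reads cannot be told apart from those of Nat6 (difference -0.65), which overlaps it on the same strand, so these are not independent calls. Reln, the secreted protein reelin, had -0.86 ± 0.17 (SE, adjusted p = 0.0388).

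Several lower genes act in signalling and metabolism. Nkd2 restrains Wnt signalling at Dishevelled and was at 3.68, 4.22 and 3.90 CPM with vehicle and 4.03, 4.17 and 3.03 CPM with JQ1 in wild type, and 19.9, 16.2 and 23.1 CPM with vehicle and 5.84, 7.57 and 7.99 CPM with JQ1 in PLNR9C. Its PLNR9C groups were apart and its wild type groups overlapped, with a difference of -1.40 ± 0.24 (SE, adjusted p = 0.0278). Ddah1 breaks down asymmetric dimethylarginine, an inhibitor of nitric oxide synthase. It was at 12.2, 16.2 and 11.2 CPM with vehicle and 14.1, 18.1 and 16.5 CPM with JQ1 in wild type, and 37.1, 37.8 and 35.8 CPM with vehicle and 20.2, 22 and 19.9 CPM with JQ1 in PLNR9C. All 3 JQ1 libraries of PLNR9C were below its vehicle libraries, the wild type groups overlapped, and the difference was -1.14 ± 0.17 (SE, adjusted p = 0.0161). Otub2, a deubiquitinase, and Pqlc3, a PQ-loop protein, had -1.09 ± 0.23 (SE, adjusted p = 0.0498) and -0.99 ± 0.18 (SE, adjusted p = 0.0278).

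Slc2a1 encodes the glucose carrier GLUT1 and was at 19.2, 20.7 and 23.4 CPM with vehicle and 34.5, 33.9 and 31.9 CPM with JQ1 in wild type, and 37.8, 37.7 and 40.3 CPM with vehicle and 39.6, 40.2 and 40.8 CPM with JQ1 in PLNR9C. JQ1 raised it in wild type (0.67) without overlap, in PLNR9C its effect of 0.06 did not pass, and the difference was -0.61 ± 0.12 (SE, adjusted p = 0.031). It was the only one of 21 glycolysis genes called, where 0.207% of all genes were called lower, and the list median was -0.08. Mthfd2, a mitochondrial folate enzyme and a target of the integrated stress response, was at 1.51, 0.755 and 1.22 CPM with vehicle and 4.03, 3.90 and 4.20 CPM with JQ1 in wild type, and 17.2, 15.3 and 14.2 CPM with vehicle and 23.3, 22.9 and 20.5 CPM with JQ1 in PLNR9C. It rose with JQ1 in both genotypes, by 1.79 from a low level in wild type and by 0.51 in PLNR9C, and the difference was -1.28 ± 0.24 (SE, adjusted p = 0.0278). In CPM rather than as a ratio the gain was the larger in PLNR9C, 6.67 against 2.88 CPM.

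**Figure D2:**
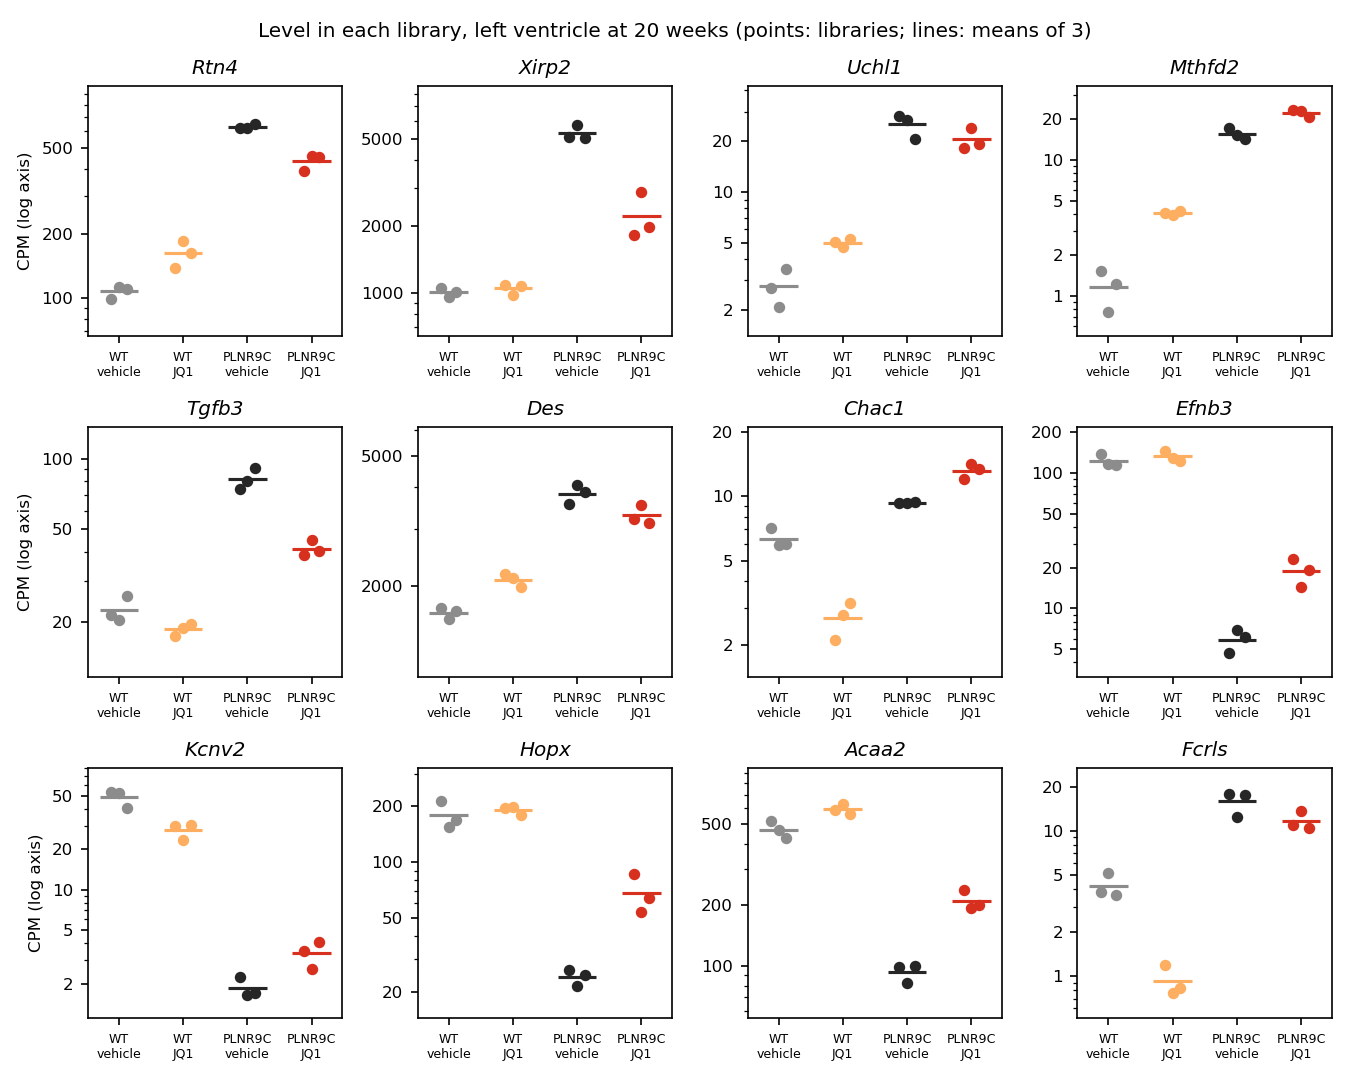
CPM (log axis) of 12 called genes in each of the 12 libraries; points are libraries, lines the mean of 3, and colours the groups. Rtn4, Xirp2, Uchl1, Mthfd2, Tgfb3 and Des are from the lower set and the other 6 from the higher set. Rtn4 moves up with JQ1 in wild type and down in PLNR9C, and Chac1 the other way.

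Chac1 led the higher set in adjusted p. It encodes an enzyme that degrades glutathione and is induced through ATF4 and CHOP, and lies at chr2:119351242-119354327, plus strand in the deposited table. Its levels were 7.10, 5.91 and 5.98 CPM with vehicle and 2.12, 2.76 and 3.17 CPM with JQ1 in wild type, and 9.35, 9.27 and 9.38 CPM with vehicle and 12.1, 14.1 and 13.5 CPM with JQ1 in PLNR9C. The 4 groups did not overlap: JQ1 lowered Chac1 in wild type and raised it in PLNR9C, by 0.50, and the difference was 1.74 ± 0.21 (SE, adjusted p = 0.00121). Chac1 and Mthfd2 are both on the list of the integrated stress response, where 20 genes were measured. They were called in opposite directions, where 0.15% of all genes were called higher and 0.207% lower. No other member was called, and the list median was 0.02. Among the others Psat1 and Trib3 had 0.79 and 0.78, Atf4 -0.12 and Ddit3, which encodes CHOP, 0.39.

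Among the higher genes were several of cardiomyocytes whose level was lower in PLNR9C than in wild type. The summed level of 20 adult sarcomere genes, as a measure of myocyte RNA, was 89181 to 101800 CPM with vehicle and 109340 to 119630 CPM with JQ1 in wild type, and 57691 to 65313 and 71684 to 75010 CPM in PLNR9C. It was higher with JQ1 in both genotypes, the list median of the difference was -0.01, and its part in these results was not tested. Kcnv2, a silent subunit that modifies voltage-gated potassium channels, was at 53.6, 52.7 and 40.7 CPM with vehicle and 29.9, 23.5 and 30.1 CPM with JQ1 in wild type, and 2.25, 1.65 and 1.70 CPM with vehicle and 3.50, 2.57 and 4.07 CPM with JQ1 in PLNR9C. JQ1 lowered it in wild type and raised it in PLNR9C without overlap, and the difference was 1.65 ± 0.25 (SE, adjusted p = 0.0161). It was the only one of 23 cardiac ion channel genes called, where 0.15% of all genes were called higher. Hopx, a homeodomain protein of heart development, was at 215, 155 and 169 CPM with vehicle and 195, 198 and 180.2 CPM with JQ1 in wild type, and 26.2, 21.5 and 24.5 CPM with vehicle and 86.0, 53.8 and 64.3 CPM with JQ1 in PLNR9C. It rose in PLNR9C by 1.5 and the wild type groups overlapped, with a difference of 1.41 ± 0.23 (SE, adjusted p = 0.031).

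Efnb3 and Epha4 encode an ephrin ligand and an Eph receptor, the membrane proteins of a contact signalling system. Efnb3 was at 138, 117 and 114 CPM with vehicle and 146, 129 and 123 CPM with JQ1 in wild type, and 4.66, 6.89 and 6.12 CPM with vehicle and 23.3, 14.4 and 19.2 CPM with JQ1 in PLNR9C. The PLNR9C groups were apart at a level far under that of wild type, whose groups overlapped, and the difference was 1.60 ± 0.24 (SE, adjusted p = 0.0278). Epha4 was at 65.3 to 105 and 64.6 to 70.7 CPM in wild type and at 22.5 to 25.2 and 33.7 to 37.1 CPM in PLNR9C, vehicle before JQ1, so that it overlapped in wild type only, with a difference of 0.97 ± 0.19 (SE, adjusted p = 0.0398). Adcy1, an adenylyl cyclase, had 1.26 ± 0.24 (SE, adjusted p = 0.031). Ip6k3, an inositol phosphate kinase, had 1.16 ± 0.23 (SE, adjusted p = 0.0414), and Adam11, a membrane protein of the ADAM family, 1.10 ± 0.21 (SE, adjusted p = 0.0388). In wild type JQ1 lowered all of Adcy1 (-0.85), Ip6k3 (-1.53) and Adam11 (-0.79).

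Fatty acid oxidation breaks acyl chains down to acetyl-CoA in the mitochondria, the main fuel route of the adult heart. Acaa2, the thiolase of its last step, was at 518, 469 and 428 CPM with vehicle and 587, 633 and 561 CPM with JQ1 in wild type, and 98.5, 82.8 and 99.7 CPM with vehicle and 238, 192 and 200.5 CPM with JQ1 in PLNR9C. JQ1 raised it in both genotypes, by 0.33 in wild type and 1.17 in PLNR9C, and the difference was 0.83 ± 0.14 (SE, adjusted p = 0.0182). In CPM the gains were 122.2 in wild type and 116.6 in PLNR9C. Eci1, an isomerase needed for unsaturated fatty acids, was at 216, 179 and 188 CPM with vehicle and 231, 223 and 217 CPM with JQ1 in wild type, and 43.7, 44.1 and 49.2 CPM with vehicle and 86.1, 71.2 and 78.0 CPM with JQ1 in PLNR9C. Its PLNR9C groups were apart and its wild type groups nearly touched, with a difference of 0.58 ± 0.12 (SE, adjusted p = 0.0446). These were the 2 of 29 list members called by edgeR, where 0.15% of all genes were called higher. DESeq2 called 6 list members higher, where it called 99 of all 15971 genes higher. In all 28 of 29 were above 0, with a median of 0.31 (0.30 with DESeq2's size factors), and 17 were above 0 with an unadjusted p under 0.05, as were 5.94% of all genes. Cpt1b, the carnitine transferase of the outer membrane, was at 0.09. In other libraries cardiomyocytes had a list median of -0.05, non-myocytes -0.63 and the ventricle at 8 weeks 0.08. The adult sarcomere list was at -1.12 in non-myocytes, and the part of myocyte RNA in that fraction was not tested. The summed level of the list was 14144 to 14879 CPM with vehicle and 16117 to 16557 CPM with JQ1 in wild type. In PLNR9C it was 5575 to 5917 and 7620 to 8049 CPM. It rose with JQ1 in both genotypes, from a lower level in PLNR9C, and the part of that level in the ratios was not tested.

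Other lists held no gene called by edgeR yet lay to one side, and are given as descriptions. All 53 nuclear genes of oxidative phosphorylation were above 0, from 0.07 to 0.60, with a median of 0.29. The median JQ1 effect on them was 0.35 in PLNR9C and 0.06 in wild type, and 26 had an unadjusted p under 0.05, against 5.94% of all genes in that direction. In other libraries the list median of the difference was not as high: cardiomyocytes had -0.20, non-myocytes -0.68 and the ventricle at 8 weeks 0.10. In non-myocytes the adult sarcomere and calcium handling lists were also below 0, at -1.12 and -0.59. The part of myocyte RNA in that fraction was not tested. At 20 weeks the 13 mitochondrially encoded genes did not move with the nuclear ones: 9 were below 0 and the median was -0.12. All 18 genes of the unfolded protein response, the chaperone programme of the endoplasmic reticulum, were above 0, with a median of 0.40 and 9 at an unadjusted p under 0.05, against the same 5.94%. DESeq2 called 1 of the 18, higher, where it called 99 of all 15971 genes higher. Their summed level was 1705 to 1992 and 1723 to 1959 CPM in wild type with vehicle and JQ1, and 1667 to 1984 and 2402 to 2612 CPM in PLNR9C. In PLNR9C the groups were apart and in wild type they overlapped. For the unfolded protein response list, cardiomyocytes had a median difference of -0.18, non-myocytes 0.24 and the ventricle at 8 weeks 0.01. In all, edgeR called 13 of 731 list genes, in 10 of the 39 lists, where 0.357% of all genes were called. The lists were chosen with earlier results of these data known.

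**Figure D3:**
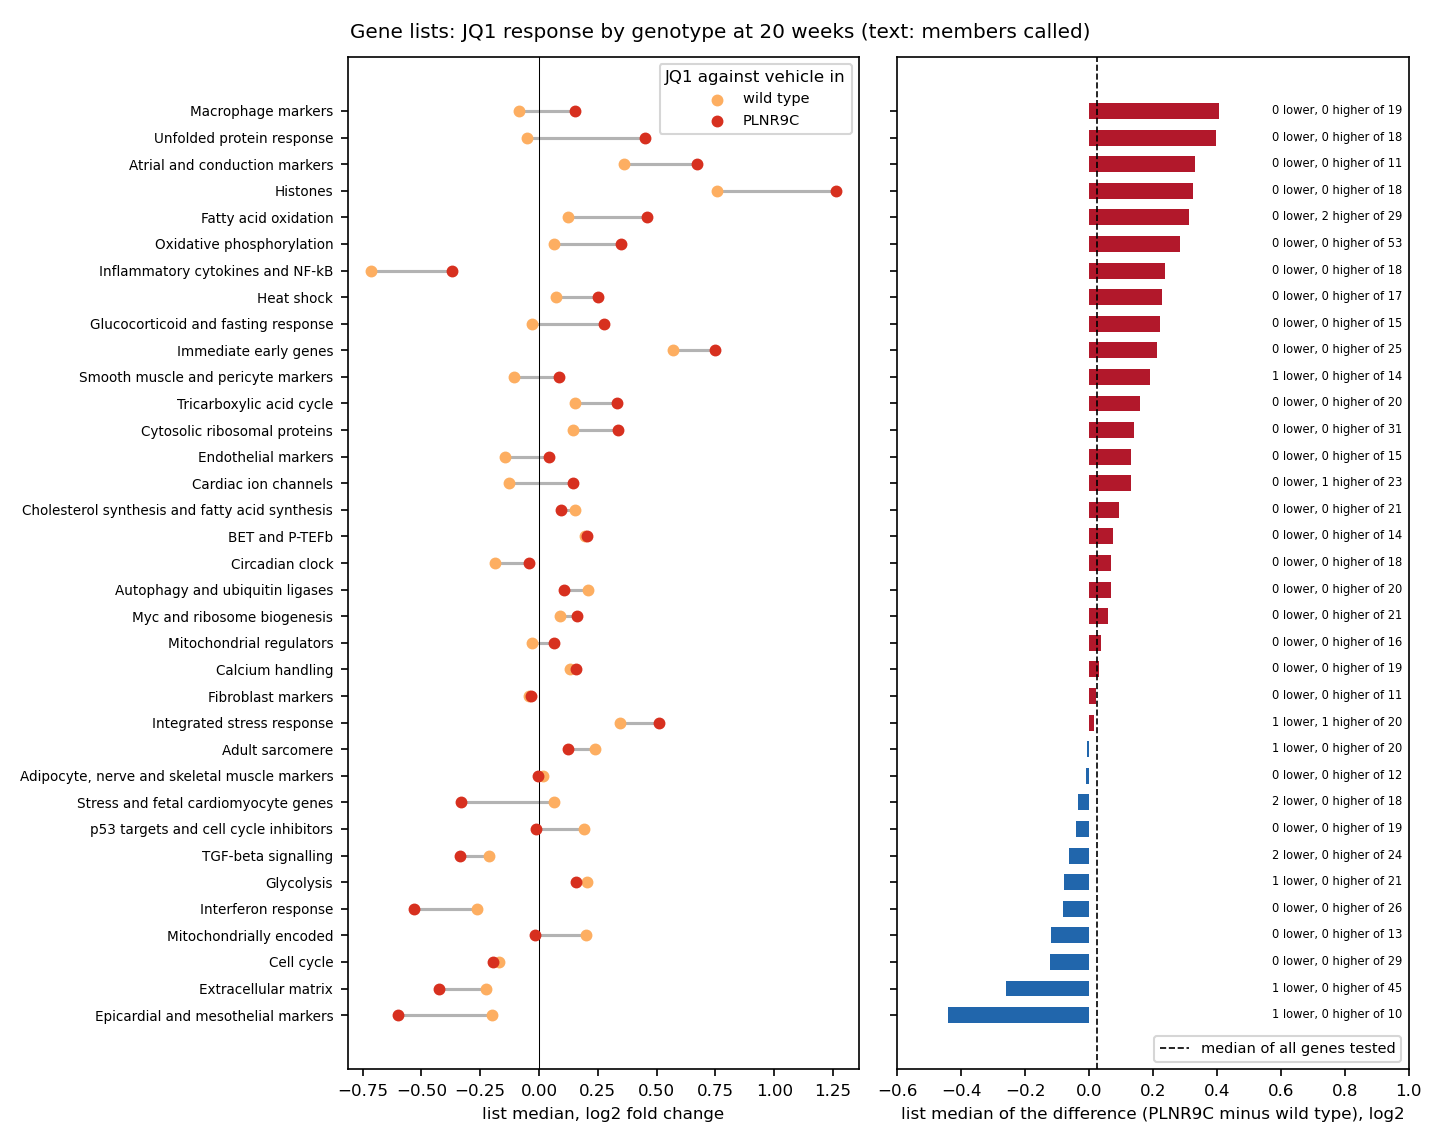
Gene lists with at least 10 measured members. Left, median log2 fold change of JQ1 against vehicle in wild type (orange) and PLNR9C (red). Right, list median of the difference as bars, with the number of members called in each direction. The dashed line is the median of all genes, 0.02. The macrophage, unfolded protein response, atrial and conduction, histone, fatty acid oxidation and oxidative phosphorylation lists lie furthest to the right, matrix and epicardial lists to the left, while few of their members were called.

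Several higher genes are known from macrophages and other immune cells. Fcrls, a scavenger receptor of resident macrophages, was at 3.77, 5.11 and 3.60 CPM with vehicle and 1.19, 0.770 and 0.830 CPM with JQ1 in wild type, and 18, 12.5 and 17.6 CPM with vehicle and 11, 13.7 and 10.5 CPM with JQ1 in PLNR9C. JQ1 lowered it in wild type (-2.17) and in PLNR9C (-0.45), and the difference was 1.71 ± 0.30 (SE, adjusted p = 0.0278). In CPM its change was the larger in PLNR9C, -4.32 against -3.23 CPM. C5ar1, the receptor for complement C5a, was at 10.6, 9.37 and 11.2 CPM with vehicle and 7.91, 6.07 and 8.35 CPM with JQ1 in wild type, and 26.2, 20.4 and 20.0 CPM with vehicle and 30.7, 32.1 and 33.5 CPM with JQ1 in PLNR9C. JQ1 lowered it in wild type and raised it in PLNR9C without overlap in either, with a difference of 1.01 ± 0.18 (SE, adjusted p = 0.0278). Cxcr4, the receptor for the chemokine CXCL12, was at 6.88, 9.64 and 10.1 CPM with vehicle and 7.76, 4.85 and 5.91 CPM with JQ1 in wild type, and 7.24, 8.22 and 10.5 CPM with vehicle and 17.1, 19.0 and 14.2 CPM with JQ1 in PLNR9C. It rose in PLNR9C without overlap, and the difference was 1.49 ± 0.27 (SE, adjusted p = 0.0278). Slco2b1, an organic anion carrier, and Icosl, a ligand for T cell costimulation, had 0.93 ± 0.17 (SE, adjusted p = 0.0278) and 0.88 ± 0.16 (SE, adjusted p = 0.0278). Of 19 macrophage markers edgeR called none and DESeq2 called 2, both higher, where it called 99 of all 15971 genes higher. In edgeR 14 were above 0, 8 had an unadjusted p under 0.05 in that direction, against 5.94% of all genes, and the median was 0.41. Their summed level was 351 to 383 and 338 to 395 CPM in wild type with vehicle and JQ1, and 910 to 1229 and 1293 to 1383 CPM in PLNR9C. It overlapped in wild type and was higher with JQ1 in PLNR9C, and its part in the results for these genes was not tested.

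Of the usual marker genes of heart failure, Nppa, Nppb, Acta1, Ctgf and Myh7 did not pass. Nppa, the atrial natriuretic peptide, was at 49.0 ± 17.2 CPM (SD, n = 3) with vehicle and 45.3 ± 6.05 CPM with JQ1 in wild type, and at 3747 ± 276 and 3476 ± 864 CPM in PLNR9C. Its difference was 0.01 ± 0.34 (SE). Nppb, the B-type peptide, had 0.87 (adjusted p = 0.731), Acta1, skeletal actin, 0.33 (adjusted p = 0.795), and Ctgf, a matricellular growth factor, -0.67 (adjusted p = 0.742). Myh7, the fetal beta myosin heavy chain, came closest. It was at 3195 ± 162 and 3994 ± 320 CPM in wild type and at 8177 ± 1361.5 and 6254 ± 856 CPM in PLNR9C, vehicle before JQ1, with a difference of -0.71 (adjusted p = 0.0838). Pln itself was at 4188 ± 165 and 4002 ± 58.7 CPM in wild type and at 1788 ± 91.9 and 2228 ± 198 CPM in PLNR9C, with a difference of 0.38 (adjusted p = 0.155). Atp2a2, the calcium pump that phospholamban restrains, had 0.38 (adjusted p = 0.314), and Myh6 0.27 (adjusted p = 0.641). Nor did the difference pass for Tgfb2, a ligand (-0.23), Timp1, an inhibitor of metalloproteases (1.23), Ppargc1a, a coactivator of mitochondrial genes (0.26), Gdf15, a stress hormone (0.38), or Ccl2, a chemokine (1.12). Of the 18 genes on the list of stress and fetal cardiomyocyte genes, edgeR called Xirp2 and Uchl1 and DESeq2 called 4, all lower. Of all 15971 genes, 33 (0.207%) were called lower by edgeR and 109 by DESeq2. In the list 9 genes were above and 9 below 0.

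Libraries that had no part in the call show where the 57 genes stood in the disease. At 8 weeks, in other mice with vehicle, 14 of the 33 lower genes were higher in PLNR9C than in wild type and none was lower, where 7.86% of all genes were higher. In cardiomyocytes pooled at 16 weeks 26 of 32 measured lower genes were higher in PLNR9C and 1, Reln, was lower, where 14.3% of all genes were higher. The pattern was weaker in non-myocytes, where 9 of the 33 were higher in PLNR9C and 3 were lower. Of all 15347 genes there, 1584 were higher and 1277 lower. Mthfd2 was higher by 3.35 at 8 weeks and 3.90 in cardiomyocytes, Ncam1 by 1.29 and 4.90, Uchl1 by 1.59 and 3.38, and Rtn4 by 1.20 and 2.63.

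Of the 24 higher genes, 11 were lower in PLNR9C at 8 weeks, where 6.5% of all genes were, and 4 were higher, where 7.86% were. In cardiomyocytes 14 were lower, where 11.8% of all genes were, and 5 were higher, where 14.3% were. In non-myocytes 8 of 23 were lower in PLNR9C and 4 were higher. Efnb3 was at -0.83 at 8 weeks and -3.20 in cardiomyocytes, and Kcnv2 at -1.07 and -2.97. The 5 that were higher in cardiomyocytes of PLNR9C were Fcrls, C5ar1, Cxcr4, Adcy1 and Chac1. For cardiomyocytes against non-myocytes Fcrls, C5ar1 and Cxcr4 were at -3.48, -3.77 and -3.13, and Adcy1 and Chac1 at 3.59 and 2.49. How far RNA from non-myocytes sets the values of Fcrls, C5ar1 and Cxcr4 in the cardiomyocyte libraries was not tested. In the 20-week libraries themselves the median effect of the genotype with vehicle was 1.28 over the lower and -1.60 over the higher genes. Those values share their libraries with the difference and support nothing.

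**Figure D4:**
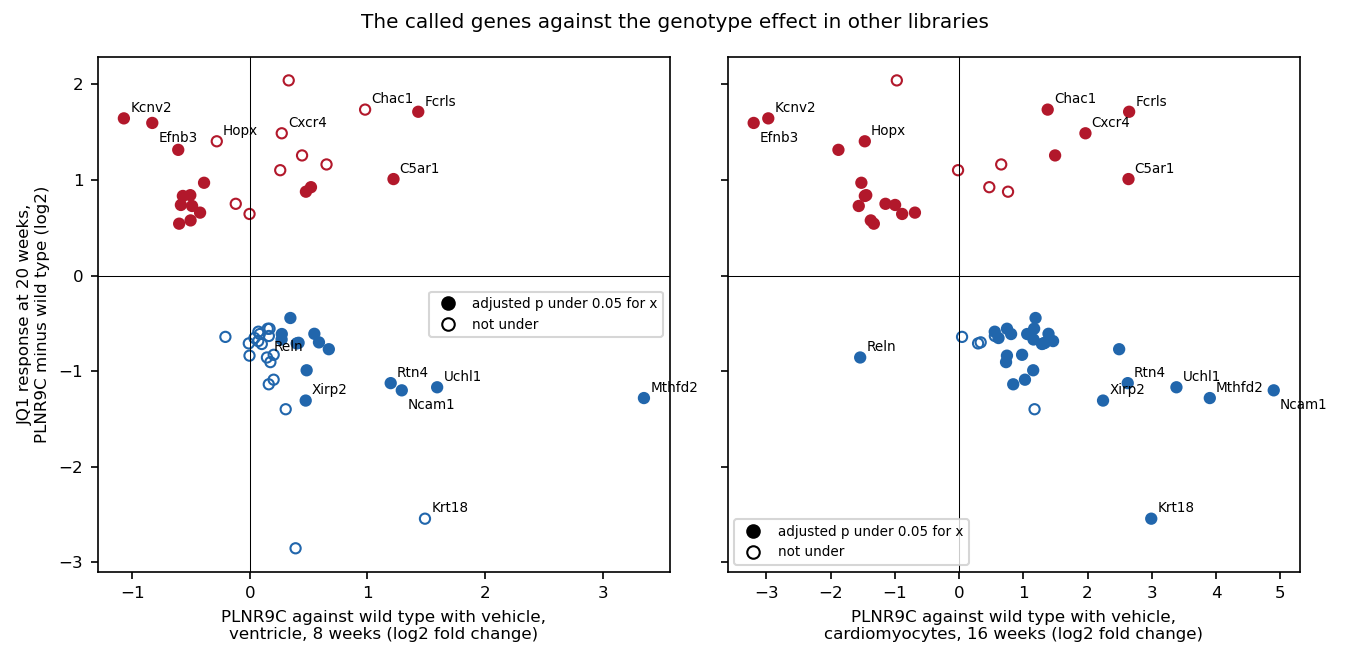
Difference of the JQ1 response at 20 weeks (y axis, log2) against the effect of the genotype with vehicle in other libraries (x axis, log2), for the called genes; left, ventricle at 8 weeks, right, cardiomyocytes at 16 weeks. Filled points passed for the genotype effect. Blue points, the lower set, lie to the right of 0 for 30 of 33 genes at 8 weeks and for 31 of 32 in cardiomyocytes, where Reln is the other one, and red points lie on both sides.

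The cell fractions at 16 weeks, compared over all 24 of their libraries, show in which cells the genes are the more abundant. Of the higher genes 18 of 24 were the more abundant in cardiomyocytes, where 41.9% of all genes were, and 5 in non-myocytes, where 47.5% were. These 5 were Fcrls, C5ar1, Cxcr4, Slco2b1 and Icosl, each at -3.01 or lower for cardiomyocytes against non-myocytes on the log2 scale. Hopx (3.97), Efnb3 (4.23), Kcnv2 (3.95) and Acaa2 (3.36) lay on the myocyte side. Of the 33 lower genes 14 were the more abundant in cardiomyocytes and 15 in non-myocytes, close to the shares of all genes, 41.9% and 47.5%. Xirp2 at 5.47 and Des at 4.68 lay at one end, and Nkd2 at -2.57 and Loxl3 at -1.52 toward the other.

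The same difference of differences was called for almost no gene elsewhere. With edgeR's quasi-likelihood test 1 of 15501 genes passed in the ventricle at 8 weeks, none of 14142 in cardiomyocytes and none of 15347 in non-myocytes, with 871, 954 and 1391 genes at an unadjusted p under 0.05. DESeq2 called 11, 7 and 66. The gene at 8 weeks was Slc7a5, an amino acid carrier, at -1.11 (adjusted p = 0.0233). Leaving out the second vehicle library of wild type at 8 weeks gave 22 calls, leaving out the second JQ1 library of PLNR9C gave 2, and leaving out any of 7 others gave 0 (the first or the third JQ1 library of either genotype, the first or the third vehicle library of wild type, or the first vehicle library of PLNR9C). In non-myocytes leaving out the first JQ1 library of PLNR9C gave 225, and leaving out the third vehicle library of PLNR9C or the second JQ1 or vehicle library of wild type gave 1.

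The 57 genes were then read in these libraries one experiment at a time. Their differences had the sign of 20 weeks in 41 of 57 at 8 weeks, in 44 of 56 in cardiomyocytes and in 32 of 56 in non-myocytes. The lower set was below 0 in 28 of 33 genes at 8 weeks and 28 of 32 in cardiomyocytes, where 50.1% and 48.0% of all genes were above 0. The higher set was above 0 in 13 of 24 and 16 of 24. In non-myocytes 24 of 33 lower genes were below 0 and 8 of 23 higher genes above 0. Counted separately, the number of lower genes with an unadjusted p under 0.05 was 7 for each of the 3 experiments, and the sign was that of 20 weeks for 6 of the 7 in the younger ventricle and for 7 of 7 in either fraction. Of the higher genes, 5 did at 8 weeks, 3 of them with that sign, 1 in cardiomyocytes, with that sign, and 7 in non-myocytes, all with the other sign, Kcnv2 among them at -2.79. The share of all genes with an unadjusted p under 0.05 was 5.62% for the younger ventricle, 6.75% for the cardiomyocyte and 9.06% for the non-myocyte fraction. Rtn4 was at -0.52 at 8 weeks and -0.76 in cardiomyocytes, Xirp2 at -0.34 and -0.92, Uchl1 at -0.31 and -1.17, and Mthfd2 at -1.12 and -0.95. Chac1 was at 1.17 and 0.14, and Kcnv2 at -0.14 and -0.68, none of them called. In non-myocytes the 20 adult sarcomere genes had a median difference of -1.12, and Xirp2 and Des were at -1.98 and -1.25. How far RNA from myocytes sets the values in that fraction was not tested.

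The called genes not named so far were, in the lower set, Gm12295, Stk38l, Arid5a, Carhsp1, Plod2, Arhgef40, Adam9, Sema3b, Gyg, Gbe1, Prkab2 and a gene given only as NADH-cytochrome b5 reductase, which overlaps Cyb5r3. In the higher set they were Cpeb3, Plbd1, Yipf7, Car14, Fkbp4, Prps2, Lrrc4b, AI507597 and Pde11a. Their differences at 20 weeks and in the other libraries are in the colour map of the called genes.

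**Figure D5:**
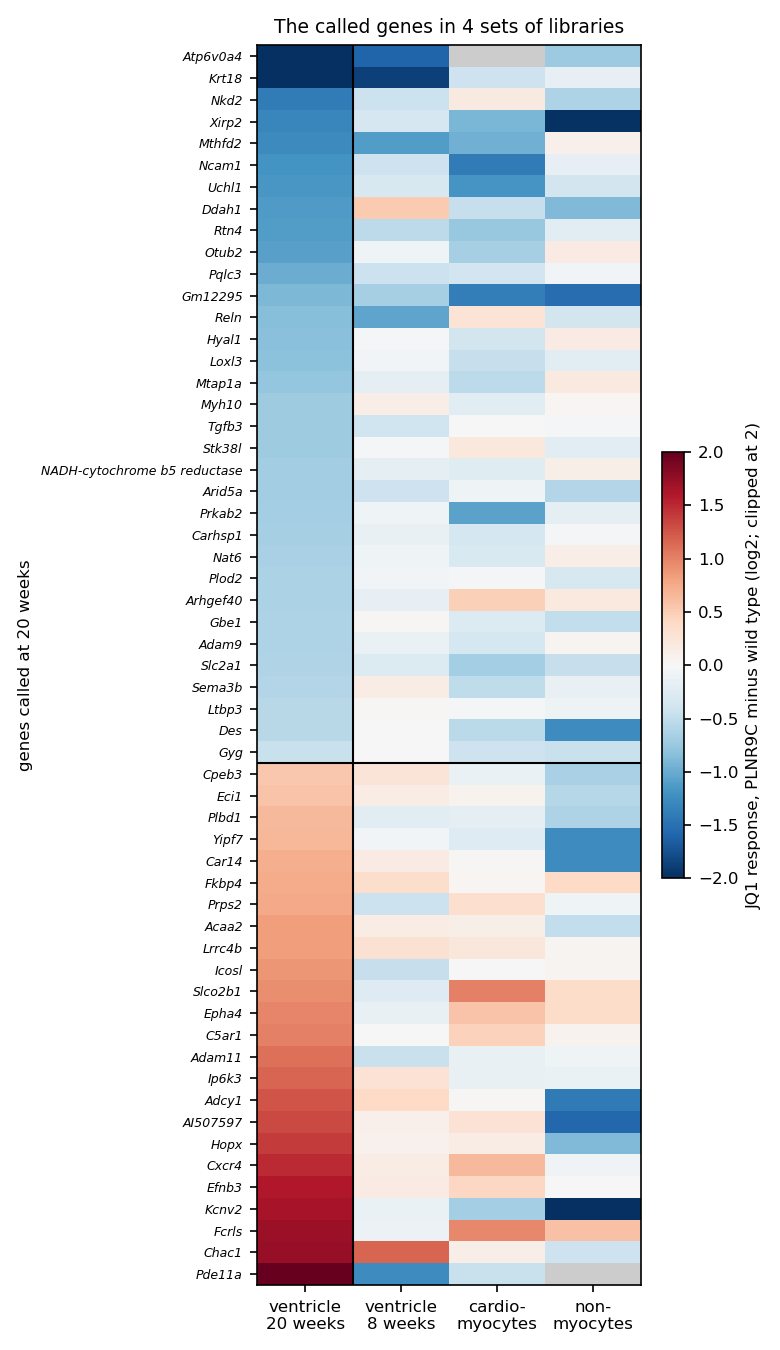
Difference of the JQ1 response, PLNR9C minus wild type (log2, colour, clipped at 2 on each side), of the 57 called genes in 4 sets of 12 libraries: ventricle at 20 weeks, which made the calls, ventricle at 8 weeks, cardiomyocytes and non-myocytes. Grey cells were not measured. Lower genes, above the line, are blue in 28 of 33 at 8 weeks, 28 of 32 in cardiomyocytes and 24 of 33 in non-myocytes. Higher genes are red in 13 of 24, 16 of 24 and 8 of 23.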

How the data were processed

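Messenger RNA was sequenced from whole left ventricle of 12 mice of 20 weeks, in 4 groups of 3. The members of the comparison, the gene lists and the rules were chosen with earlier results of these data known. The values used were raw read counts per gene, deposited by the authors as reads per library per the file headers. The authors also deposited normalized values, read here as RPKM from the file headers and the values, which entered no test. STAR 2.4.1b and the builds GRCm38 and mm10 are named in the submitters' processing notes. The counting tool, its annotation and its handling of strand were not given in the sources used here. Gene positions are those of the deposited tables, with a 1-based start.

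Genes were filtered with filterByExpr by group, scaled by TMM and fitted with 1 mean per group in edgeR 4.0.16 (glmQLFit with robust estimation, glmQLFTest) under R 4.3.3, with Benjamini-Hochberg adjustment over all genes tested and a threshold of 0.05. The standard error is the log2 fold change, as a size, divided by the root of the quasi-likelihood F statistic. The same fit was made on the 12 libraries each of the ventricle at 8 weeks, of cardiomyocytes and of non-myocytes (pooled cells of 16 weeks). The 24 ventricle libraries were fitted together for the difference between ages, and the 24 fraction libraries for cardiomyocytes against non-myocytes. Scripts were tested on simulated data. Depth was 18415351 to 26730918 reads per library, and with 3 libraries per group the median SE of a difference was 0.19 on the log2 scale.

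The genes named are, among the called genes whose highest group mean reached 10 CPM and whose name is not a predicted one, the 12 highest and 12 lowest differences, up to 4 called members of each of 39 lists, 19 genes taken whether called or not (1 more is not reported here), and from the difference between ages the 3 highest and 3 lowest. Other genes were chosen after their values were seen. Labels give the groups the same replicate numbers. Over 18 pairs of same-numbered libraries of different groups the correlation of deviations from the group means ran from -0.10 to 0.11, so the numbers were not taken to pair mice. Alternatives were DESeq2 1.42.0, RLE factors, no filter on low counts, voom in limma 3.58.1, the replicate number as a block, the length of the number on the label and the level of Xist as covariates, and leaving out each library. Library size alone and differences of mean CPM were added after seeing the data. The number on the label had 3 digits in all JQ1 libraries of PLNR9C and 3 or 4 digits within each other group. Its length was therefore not balanced over the groups, and the sources used here do not say what it stands for. Promoters are from RefSeq on GRCm38.p6.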

Additional observations from a re-analysis of the deposited data

Results flagged for a closer look

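The JQ1 response differed between genotypes at 20 weeks for 57 genes by the test of the difference itself, and these are the genes described above. The difference of the responses was also compared between ages, in 1 fit of the 24 ventricle libraries over 16220 genes. By edgeR's quasi-likelihood test 4 genes passed, 3 higher at 20 weeks and 1 lower, and 1176 had an unadjusted p under 0.05. Leaving out 1 library gave 17 calls without the second wild type vehicle library of 8 weeks. It gave 1 call without the first or the third PLNR9C JQ1 or the second wild type JQ1 library of 20 weeks, or without the third PLNR9C JQ1, the first PLNR9C vehicle or the first wild type vehicle library of 8 weeks. It gave 2 calls without the first wild type vehicle library of 20 weeks, or without the third PLNR9C vehicle, the second or the third wild type JQ1 or the third wild type vehicle library of 8 weeks.

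Ddah1, which degrades an inhibitor of nitric oxide synthase, differed between ages by -1.68 ± 0.26 (SE, adjusted p = 0.0139). Its difference was 0.52 at 8 weeks and -1.14 at 20 weeks. Icosl, a costimulatory ligand, differed by 1.32 ± 0.22 (adjusted p = 0.0231), with -0.46 and 0.88. Pde11a, a phosphodiesterase of cyclic nucleotides, differed by 3.27 ± 0.60 (adjusted p = 0.0349), with -1.25 and 2.04, at under 5 CPM in every library of 20 weeks. Ppl, the cell junction protein periplakin, differed by 1.68 ± 0.30 (adjusted p = 0.0299), with -0.91 and 0.79, and was not called at 20 weeks alone. The 2 ages were different mice, and none of these genes passed at 8 weeks alone. By the same test the adjusted p there was 0.842 for Ddah1, 0.829 for Icosl and 0.258 for Ppl. For the other 54 of the 57 genes the difference between ages did not pass, which does not show that their responses were alike at the 2 ages.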

How the results depend on the processing

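Against 57 calls at 20 weeks (24 higher, 33 lower), DESeq2 gave 208 (99 and 109), no filter on low counts 127 (76 and 51), the replicate block 92 (42 and 50), the length of the label number 107 (53 and 54), Xist 8 (4 and 4) and voom 40 (14 and 26). DESeq2 kept all 57, RLE factors 55 of 57, the replicate block 54 and voom 39. Leaving out 1 library gave 8 to 87 calls (4 to 41 higher, 4 to 46 lower), 0 to 22 at 8 weeks, 0 to 225 in non-myocytes and 1 to 17 for the difference between ages. DESeq2 called 11 genes at 8 weeks, 7 in cardiomyocytes, 66 in non-myocytes and 25 between ages, and no filter 8 at 8 weeks and 2 in non-myocytes. The cause was not tested. The replicate block moved no count of calls elsewhere by over 1.5 times. Among the lists it called 3 fatty acid oxidation genes higher (2 without it), 2 matrix genes lower (1) and 1 adult sarcomere gene higher (0). Some uncalled genes turned sign: Nppa to -0.0061 with DESeq2, -0.0078 with RLE factors, -0.0097 with the replicate block and -0.070 with voom, Col3a1 to 0.0097 without the filter, 0.15 with voom, 0.029 with the replicate block, 0.24 with the label number and 0.024 with library size, Col1a1 to 0.046 with the label number and Cpt1b to -0.010 with Xist. Leaving out 1 library gave -0.43 to 0.12 for Col1a1, -0.36 to 0.29 for Col3a1, -0.46 to 0.94 for Gdf15, -0.33 to 0.14 for Nppa and -0.059 to 0.55 for Ppargc1a. No called gene changed direction in any setting run. Depth limits genes at few CPM, such as Krt18 in wild type.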

Other observations

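Among the lower genes, 3 that the lists did not hold encode proteins that make or bind glycogen, the stored form of glucose. They were singled out after their values were seen, from the 33 genes called lower (0.207% of all tested). No list of glycogen genes was drawn up, so they are 3 single genes and not a result about the pathway. Gyg, glycogenin, which primes the glycogen particle, was at 142, 155 and 145 CPM with vehicle and 177, 193 and 178 CPM with JQ1 in wild type, and at 321, 335 and 324 CPM with vehicle and 294, 298 and 303 CPM with JQ1 in PLNR9C. Its groups did not overlap, and the difference was -0.44 ± 0.09 (SE, adjusted p = 0.0434). Gbe1, the glycogen branching enzyme, had a difference of -0.61 ± 0.12 (adjusted p = 0.0293). JQ1 raised it in wild type (0.29) and lowered it in PLNR9C (-0.33). Prkab2, a subunit of the AMP-activated kinase with a glycogen-binding domain, had -0.68 ± 0.13 (adjusted p = 0.0278) and fell only in PLNR9C by its own test, with JQ1 effects of -0.73 in PLNR9C and -0.04 in wild type. In cardiomyocytes, in other libraries, all 3 were higher in PLNR9C than in wild type with vehicle, by 1.19, 0.81 and 1.46, and their differences of the JQ1 response there were -0.42, -0.27 and -1.07, none of them called.

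Fkbp4, a co-chaperone of steroid receptors, was the only called gene of the higher set other than Chac1, Kcnv2 and Acaa2 with an adjusted p under 0.02, at 0.74 ± 0.12 (adjusted p = 0.0161). It rose in PLNR9C (0.76), and its effect in wild type was 0.02. Fkbp4 was at 261, 236 and 230.0 CPM with vehicle and 269, 238 and 229.7 CPM with JQ1 in wild type, and at 77.7, 73.6 and 78.7 CPM with vehicle and 143, 118 and 128 CPM with JQ1 in PLNR9C.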
